A study of Rattus norvegicus with 8 samples.

Results

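The genes described here encode 10 inflammatory cytokines, cytokine receptors and innate sensors of the rat, namely Il1b, Il1rn, Il18, Il6, Il6r, Il10, Tnf, Tlr2, Tlr4 and Ptx3. They were chosen by symbol, and all 10 were found among the 37209 genes of the count table. mRNA was sequenced from carotid arteries of Sprague-Dawley (SD) rats, which were male, weighed 400 g on average and were of an age that the labels do not give. In the injured group, the left carotid artery was damaged from inside with an angioplasty balloon catheter (2 F, 0.67 mm) and harvested 2 weeks later, and 4 such arteries were sequenced. The control group holds 4 undamaged right carotid arteries, which served as the control of the same animals. No animal carried an engineered allele, and whether arteries with the same number came from the same rat is not stated, so the p-values measure the spread between these arteries.

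Total counts lay between 13470754 and 15276952 in the control libraries and between 11459632 and 16658089 in the injured ones. Levels are given as CPM, a gene's count relative to the TMM-scaled total of its library, and 3 counts, the smallest level treated as detectable in a library, were 0.168 to 0.246 CPM. Control artery 4 stood apart. Across genes, its log2 CPM had correlations of 0.83 to 0.852 with the other control libraries, whereas those 3 had correlations of 0.976 to 0.978 among themselves. The 6 sympathetic neuron markers include the catecholamine enzymes Th and Dbh. They summed to 5858 CPM in that artery and to at most 2.3 CPM in the other controls. In injured arteries 1 to 4 they summed to 77.1, 9.07, 954 and 9.16 CPM. Markers of the labelled tissue were abundant, with a sum of 10001 to 48802 CPM over 6 smooth muscle genes. Control artery 4 had 16885 CPM of these, against 35893 to 48802 CPM in the other controls. Its fibroblast markers summed to 10269 CPM, against 26974 to 30543 CPM in the other controls. Its Schwann cell markers summed to 1356 CPM, against 56.1 to 616 CPM. The extraction text speaks of prefrontal cortex, but 6 brain neuron markers together reached at most 22.7 CPM.

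IL-1β (Il1b), IL-6, IL-18 and TNF-α are secreted by activated macrophages and other cells and drive inflammation, whereas the IL-1 receptor antagonist (Il1rn) occupies the IL-1 receptor without signaling and IL-10 restrains cytokine production. Toll-like receptors sense microbial products and molecules released by damaged tissue, and they signal through MyD88 to NF-κB, which switches on cytokine genes. In an artery stripped of its endothelium, platelets and leukocytes attach to the wall while smooth muscle cells proliferate, and these mediators are part of that response.

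Compared with the control arteries, 5 of the 10 genes were significantly upregulated in the arteries injured 2 weeks earlier and none was downregulated. Il1rn and Il1b showed the largest increases, followed by Tlr2, Ptx3 and Il6r. Tlr4 and Il18 did not meet the criteria, and Il6, Il10 and Tnf had too few counts for the test. A gene was called at an adjusted p (FDR) under 0.05 together with a fold change above 2 in edgeR's quasi-likelihood test, and the same rule called 8.31% of the 14359 genes tested as higher and 10.9% in either direction. The median log2 fold change was 1.89 over the 7 genes tested and -0.06 over all genes. In 5 of the 7, every injured artery lay above every control artery, as it did for 14.2% of all genes tested. Il1b and Il1rn, with at most 6 and 7 counts in any control artery, had enough counts for the test only through the injured arteries. They could thus enter these counts and the median only by being high after injury. When control artery 4 was left out, 6 of the 10 genes were called, against 12.3% of all genes as higher. Without both control artery 4 and injured artery 3, a choice made after the marker levels were seen, 7 were called, against 12.5% of all genes as higher and 17.2% in either direction. With at least 10 counts required in every sample, 5 of the 10 could be tested and 3 were called, against 5.8% and 8.16%. DESeq2 called the same number, 5, against 9.61% of its genes as higher and 12.9% in either direction. The FDR alone passed 6, against 10.8% and 17.2%, and the replicate number as a block left 4, without Ptx3, against 6.64% and 8.27%.

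**Figure D1:**
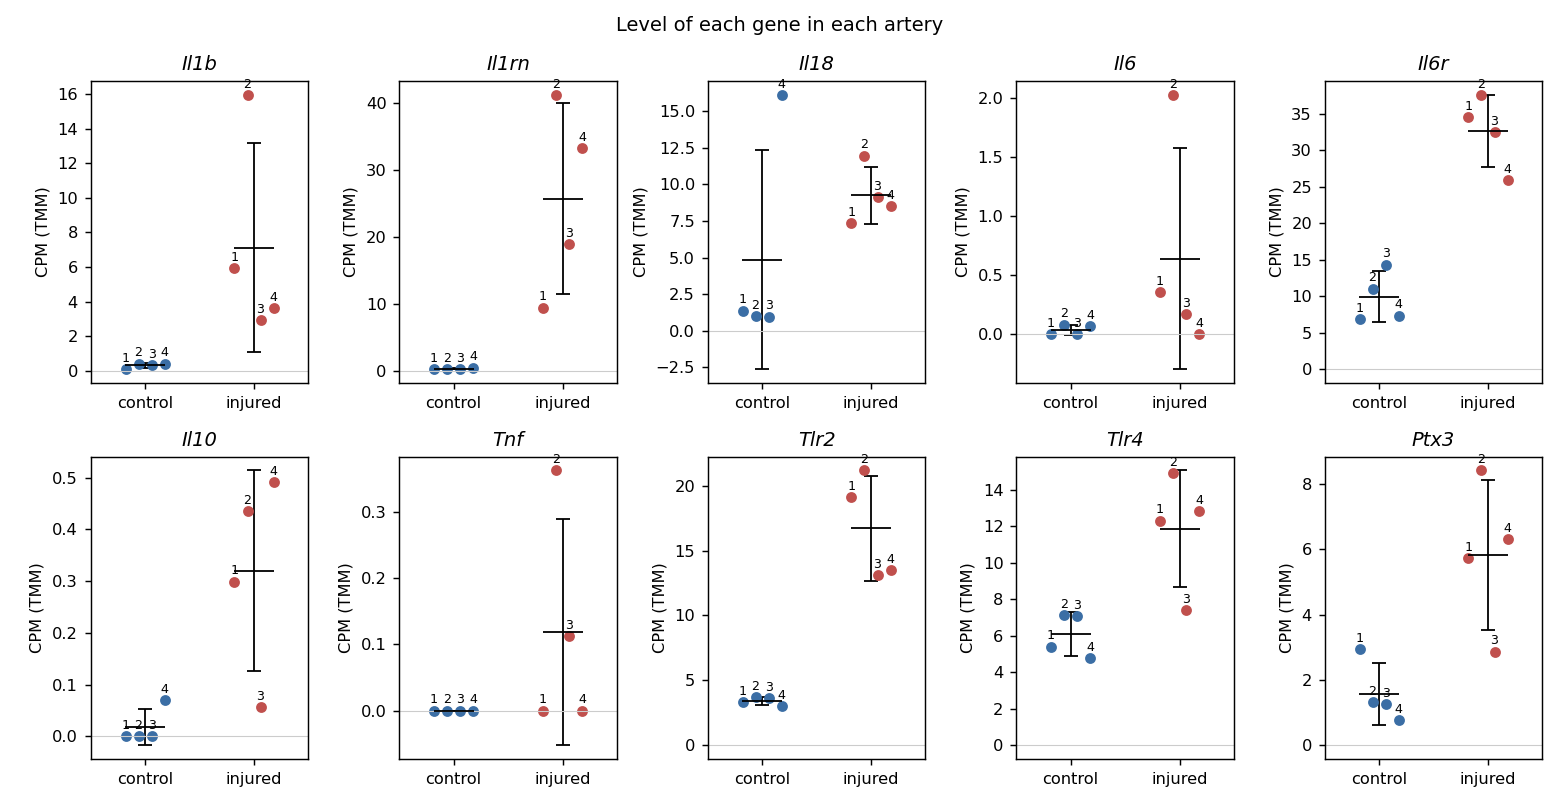
Level of each of the 10 genes in CPM (TMM-scaled, linear axes that differ between panels) in 4 control (blue) and 4 injured (red) arteries, numbered by replicate, with the mean and SD as a line and bars. Il1b, Il1rn, Il6r, Tlr2 and Tlr4 do not overlap between the groups, whereas control artery 4 lies above every injured artery for Il18, at 16.1 CPM.

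Il1b, which encodes an agonist of the IL-1 receptor, was low in the undamaged wall. Control arteries 1 to 4 had 0.072, 0.41, 0.346 and 0.417 CPM of Il1b, which were 1, 5, 5 and 6 counts. Injured arteries 1 to 4 had 5.92, 16, 2.92 and 3.6 CPM. Every injured artery thus lay above every control, and injured artery 2 had the highest level. The mean rose from 0.311 ± 0.163 CPM in the controls (SD, n = 4) to 7.1 ± 6.04 CPM after injury (SD, n = 4), which gave a log2 fold change of 4.48 ± 0.73 (SE) at an edgeR FDR of 0.00516.

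Il1rn, which encodes the antagonist of the same receptor, rose further. In the control arteries it was found at 0.288, 0.246, 0.277 and 0.486 CPM, which were 4, 3, 4 and 7 counts, near the limit of detection. In the injured arteries it reached 9.45, 41.2, 18.9 and 33.2 CPM, with artery 2 again highest and artery 1 lowest. The lowest injured level was 19.4 times the highest control level. Its log2 fold change of 6.26 ± 0.56 (SE), at an edgeR FDR of 0.000459, corresponded to a 76.7-fold increase, from 0.324 ± 0.109 CPM in the controls (SD, n = 4) to 25.7 ± 14.2 CPM after injury (SD, n = 4). Il1b and Il1rn were called in each of the 16 alternative settings that gave them a value, with log2 fold changes of 3.70 to 4.92 and of 5.94 to 6.63.

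To ask whether antagonist and agonist rose in proportion, the ratio of their counts was taken within each artery, which does not depend on how the libraries are scaled. There were 3, 0.636, 0.818 and 1.15 counts of Il1rn per count of Il1b in control arteries 1 to 4, after 0.5 was added to each count. After injury the ratios were 1.59, 2.58, 6.41 and 9.13. The groups overlapped, because control artery 1, with 1 count of Il1b, had a higher ratio than injured arteries 1 and 2. The mean log2 ratio rose by 1.76, from 0.21 ± 0.98 (SD, n = 4) to 1.98 ± 1.16 (SD, n = 4). This difference was not significant (p = 0.0857, two-sided exact permutation test over 70 relabellings, and 0.0857 after Benjamini-Hochberg adjustment over the 2 ratios tested). Among the injured arteries themselves, the ratio was lowest in the arteries with the most Il1b, numbers 1 and 2. Because Il1b is the denominator of the ratio, this order does not show a relation between the 2 genes.

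Il18, an IL-1 family cytokine that is stored as a precursor and cut by caspase-1, depended on a single library. It was found at 1.37, 0.984 and 0.97 CPM in control arteries 1 to 3 and at 16.1 CPM, or 232 counts, in control artery 4. In the injured arteries it was found at 7.36, 12, 9.15 and 8.51 CPM, all above control arteries 1 to 3 and all below control artery 4. With all 8 arteries its log2 fold change was 0.92 ± 0.92 (SE), at an edgeR FDR of 0.539. Without control artery 4 it was 3.04 ± 0.28 (SE), at an edgeR FDR of 0.000345, and Il18 was then called. DESeq2 gave no adjusted p for Il18. Injured artery 3, with the next highest sum of sympathetic neuron markers, had an Il18 level within the range of injured arteries 1, 2 and 4. Those arteries also held some of these markers, at 77.1, 9.07 and 9.16 CPM. Without both control artery 4 and injured artery 3, the log2 fold change of Il18 was 3.05. The part of those neuronal cells in the level of control artery 4 was not tested.

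**Figure D2:**
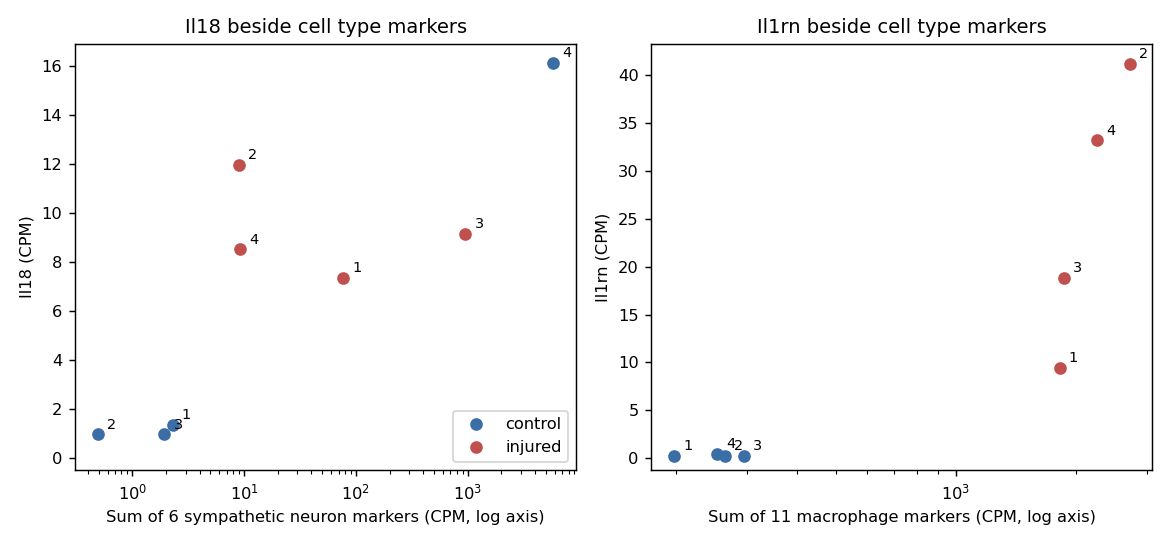
Left, Il18 (CPM) against the sum of 6 sympathetic neuron markers, and right, Il1rn (CPM) against the sum of 11 macrophage markers, with 1 point per artery (blue control, red injured, numbered by replicate) and a log axis for the marker sums. Control artery 4 is highest for both Il18 (16.1 CPM) and the sympathetic markers (5858 CPM), and the injured arteries lie at 1819 to 2717 CPM of macrophage markers against 198 to 295 CPM in the controls.

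IL-6 signals through a ligand-binding chain, Il6r, and the shared chain gp130 (Il6st). The ligand itself was scarce. In control arteries 1 to 4 there were 0, 1, 0 and 1 counts of Il6, and in injured arteries 1 to 4 there were 6, 28, 3 and 0. Injured artery 2 therefore held most of the 37 counts of the injured group, and injured artery 4 had none. Summed over the group, Il6 was 16.8 times as high after injury (95% exact interval 4.33 to 144, for counting error only). Without a filter on low counts, the log2 fold change was 3.81 with an edgeR FDR of 0.161, and DESeq2 gave 4.11 with an adjusted p of 0.0737, so neither called it.

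The receptor chain Il6r was present in every artery. It was found at 6.91, 11.1, 14.3 and 7.37 CPM in the control arteries and at 34.6, 37.6, 32.5 and 25.9 CPM in the injured ones, with no overlap. Its mean rose from 9.92 ± 3.49 CPM in the controls (SD, n = 4) to 32.6 ± 4.93 CPM after injury (SD, n = 4), which gave a log2 fold change of 1.72 ± 0.26 (SE) at an edgeR FDR of 0.00378. All 17 alternative settings called Il6r, with log2 fold changes of 1.57 to 1.94. By contrast, Il6st, the signaling chain, had 554 ± 112 CPM in controls (SD, n = 4) and 616 ± 61.4 CPM in injured arteries (SD, n = 4), and was not called at 0.15 (log2) and an edgeR FDR of 0.609. Il18 and Il6 had their highest injured level in artery 2, as did Il1b, Il1rn, Il6r, Tnf, Tlr2, Tlr4 and Ptx3, and Il10 alone of the 10 genes did not. The neutrophil and macrophage marker sums were also highest in that artery.

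Tnf and Il10 were close to the limit of detection. Tnf had 0 counts in all 4 control arteries, and 0, 5, 2 and 0 counts in injured arteries 1 to 4. Only injured artery 2 passed 3 counts, so no fold change is given for Tnf. Il10 had 0, 0, 0 and 1 counts in the control arteries and 5, 6, 1 and 6 after injury. The summed ratio of Il10 was 16.3 (95% exact interval 2.58 to 680, for counting error only), and injured artery 3 lay below control artery 4. Neither gene was called without the filter, with an edgeR FDR of 0.292 for Tnf and 0.0884 for Il10. At this depth a change of Tnf was therefore not detectable.

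Among the sensors, Tlr2, the receptor for bacterial lipopeptides, had the most uniform control levels. They were 3.31, 3.69, 3.6 and 2.99 CPM, against 19.1, 21.2, 13.1 and 13.5 CPM after injury. Each injured artery was thus at least 3.55 times as high as the highest control. The mean rose from 3.4 ± 0.318 CPM in the controls (SD, n = 4) to 16.7 ± 4.06 CPM after injury (SD, n = 4), which gave a log2 fold change of 2.30 ± 0.22 (SE) at an edgeR FDR of 0.000544. Tlr2 was called in all 17 alternative settings.

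Tlr4, which recognizes bacterial lipopolysaccharide together with Ly96 and Cd14, differed less. The control arteries had 5.4, 7.14, 7.07 and 4.8 CPM, and the injured arteries had 12.3, 14.9, 7.41 and 12.8 CPM. The groups did not overlap, but injured artery 3 was only 1.04 times as high as the highest control. The log2 fold change was 0.96 ± 0.26 (SE), at an edgeR FDR of 0.0367, so Tlr4 passed the FDR but not the required fold change of 2, its fold being 1.95. In 8 of 17 alternatives, among them those without control artery 1, 2 or 3 or without injured artery 1, 2 or 4, it did not pass the FDR either, at edgeR FDRs of 0.0614 to 0.108. It passed both criteria without injured artery 3 (log2 fold change 1.13, edgeR FDR 0.0149). It also did so with upper-quartile factors, at 1.04, and with library totals only, at 1.14, a scaling that moved the median of all genes from -0.06 to 0.12.

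The 2 receptors were therefore compared directly within each artery. In control arteries 1 to 4 there were 0.616, 0.52, 0.512 and 0.626 counts of Tlr2 per count of Tlr4, and after injury there were 1.55, 1.42, 1.76 and 1.05. All control ratios lay below 1 and all injured ratios above it, and because transcript lengths differ this shows only a shift in the balance and not which receptor was more abundant. The mean log2 ratio changed from -0.82 ± 0.15 (SD, n = 4) to 0.51 ± 0.32 (SD, n = 4), a difference of 1.33. The two-sided exact permutation test gave p = 0.0286, the smallest value that 4 arteries against 4 allow, and 0.0571 after Benjamini-Hochberg adjustment over the 2 ratios tested. The difference was higher in 4 of 4 injured arteries but did not pass the adjusted threshold.

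**Figure D3:**
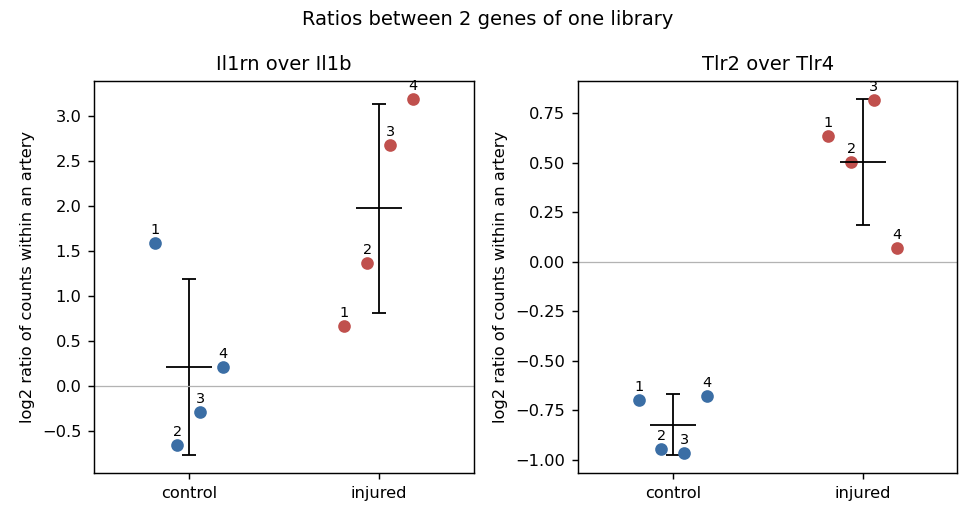
Log2 ratio of counts within each artery for Il1rn over Il1b (left) and Tlr2 over Tlr4 (right), with 0.5 added to each count, 4 control (blue) and 4 injured (red) arteries numbered by replicate, and the mean and SD as a line and bars. The Tlr2 to Tlr4 ratio is below 0 in every control and above 0 in every injured artery, whereas the Il1rn to Il1b ratio overlaps through control artery 1.

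Ptx3, a secreted pentraxin that binds microbes and matrix components and is made locally in response to IL-1 and Toll-like receptor signals, was found at 2.95, 1.31, 1.25 and 0.764 CPM in the control arteries and at 5.74, 8.41, 2.86 and 6.3 CPM after injury. Injured artery 3 lay below control artery 1, so the groups overlapped. The mean rose from 1.57 ± 0.954 CPM in the controls (SD, n = 4) to 5.83 ± 2.29 CPM after injury (SD, n = 4), which gave a log2 fold change of 1.89 ± 0.48 (SE) at an edgeR FDR of 0.0313. This call was the least stable of the 5. It was lost without control artery 2 or 3 or without injured artery 1, 2 or 4, at edgeR FDRs of 0.0883, 0.087, 0.0696, 0.0904 and 0.0858. With the replicate number as a block it was lost too, at an edgeR FDR of 0.0642. The log2 fold change stayed between 1.65 and 2.38 over all alternatives.

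**Figure D4:**
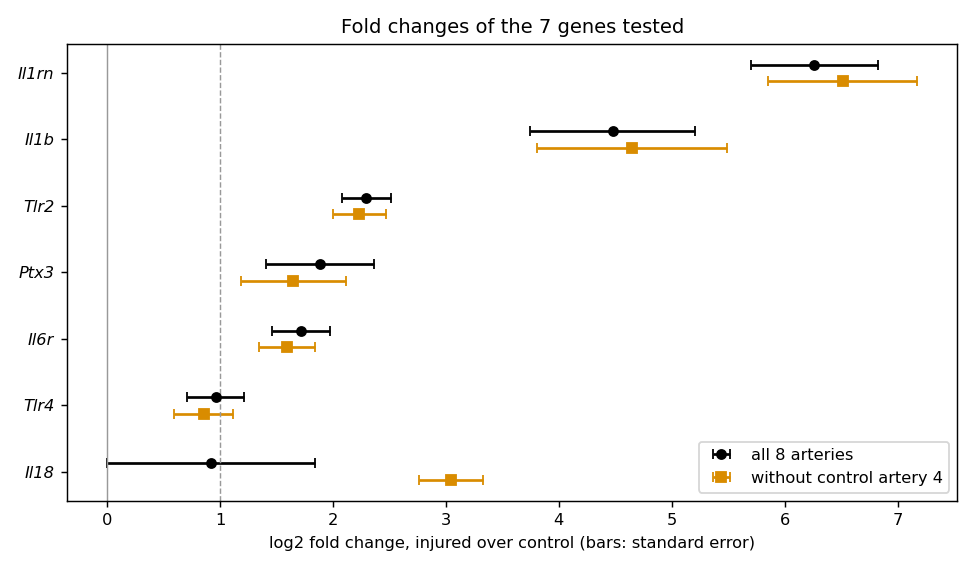
Log2 fold change (injured over control) with its standard error from edgeR for the 7 genes with enough counts, with all 8 arteries (black circles) and without control artery 4 (orange squares). The dashed line marks a fold change of 2, and Il18 moves from 0.92 to 3.04 when control artery 4 is left out.

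Promoter sequences from RefSeq (GRCr8 assembly, 250 bases before to 50 bases after the annotated start) were found for 9 of the 10 genes, all but Il10. They were searched on both strands for 4 motifs. A form of the NF-κB site, GGGA followed by any 4 bases and then CC, was found in 4 of the 9 promoters (Il6, Ptx3, Tlr2 and Tnf) and in 19.3% of all 33469 promoters of the same length. The TATA box TATAAA was found in Il1b, Il1rn (on the other strand) and Tnf and in 14.2% of all promoters. GAGGAA, a core bound by PU.1, was found in Il6r, Tlr4 and Tnf and in 27.6% of all promoters. A loose form of the AP-1 motif, TGANTCA, was found in Il18 and in 7.33% of all promoters. The Il18 match reads TGAATCA and lies after the start. The NF-κB matches that lie before the start are shown because Tlr2 and Ptx3 were called and Il6 was detected mainly in 1 injured artery. Each line gives 30 bases of the gene's strand, 5′ to 3′, with the match in capitals.
Tlr2, chr2:171504743-171504772, minus strand: aggcccttggGGGAATTCCCatacggagcc
Tlr2, chr2:171504580-171504609, minus strand: ccctggcctgGGGACGTCCCcttcccgcac
Ptx3, chr2:152797533-152797562, plus strand: ccctcccccaaatccagGGGAACTCCCtcg
Il6, chr4:5894624-5894653, minus strand: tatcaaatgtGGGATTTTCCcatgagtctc
The matches begin 205 and 42 bases before the start of Tlr2, 13 bases before that of Ptx3 and 68 bases before that of Il6, where a second match on the other strand overlaps it by all but 1 base. The match of Tnf lies after its start and is not shown. A match of these letters is a description of the sequence and not a measurement of binding.

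Marker genes of several cell types differed between the same arteries. Of 12 macrophage markers, 11 were found in the table and tested, and 10 were called higher after injury, with a median log2 fold change of 2.69. Cd163 was not called, at 0.09. Their summed level was 198 to 295 CPM in the control arteries and 1819 to 2717 CPM in the injured ones, highest in artery 2. T cell markers summed to 18.6 to 37.6 CPM and to 125 to 158 CPM, with 2 of the 6 tested, Cd2 and Cd4, called. Cd4, which is also made by rat macrophages, made up most of the sum. It was at 18 to 31.4 CPM in the controls and at 117 to 145 CPM after injury. Cd3e, Cd3d, Cd3g and Cd8a were not called. Neutrophil markers summed to 2.81 to 6.67 CPM and to 8.26 to 25.8 CPM, highest in injured artery 2. Of the 3 tested, Csf3r and S100a9 were called higher, with log2 fold changes of 4.05 and 2.55. With 1 artery left out, 1 or 2 neutrophil markers and 1 or 2 T cell markers were called higher. Without control artery 1, 1 neutrophil marker was called lower. The granule genes Mpo, Elane and Camp had at most 9, 2 and 0 counts in any injured artery, and Mpo reached 70 counts in a control. In whole arteries, more cells of a type and more RNA per cell cannot be told apart, and the part of these cells in the increases was not tested. Skeletal muscle markers were higher as well, with 4 of 6 called, a median log2 fold change of 4.14 and sums of 83.7 to 252 CPM in the controls and 273 to 959 CPM after injury. Smooth muscle markers were lower, with 5 of 6 called, a median of -1.52 and sums of 16885 to 48802 CPM and 10001 to 15605 CPM, although 0 to 6 of them were called when 1 artery was left out. The part of either tissue in the levels of the 10 genes was not tested.

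Set against the macrophage marker sum of the same artery, the 7 genes tested did not all lie on the same side of the controls. Il1rn was found at 0.929 to 1.93 CPM per 1000 CPM of macrophage markers in the controls and at 5.2 to 15.2 in the injured arteries, without overlap. Il1b was found at 0.365 to 1.65 and at 1.57 to 5.87, with overlap. Il6r (29.2 to 48.7 against 11.5 to 19), Tlr2 (11.8 to 16.8 against 5.98 to 10.5) and Tlr4 (19 to 27.4 against 3.99 to 6.77) were lower after injury on this scale. Lyz2 made up 20.4% to 64.6% of the sum. When it was left out, Il1rn (1.17 to 2.78 against 10.8 to 42.8) and Il1b (0.46 to 2.38 against 3.91 to 16.6) both lay higher, Tlr4 (27.4 to 34.5 against 9.93 to 15.9) stayed lower, and Tlr2 (16.8 to 21.1 against 16.7 to 22) and Il6r (42 to 66.8 against 32 to 43.6) overlapped. Ptx3 (3.03 to 15 against 1.54 to 3.16) and Il18 (3.29 to 63.8 against 3.77 to 4.93) overlapped on the full sum, and they also overlapped without Lyz2. These ratios were chosen after the marker levels were seen and carry no test.

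To place the 10 genes in their pathways, 84 further genes in 5 lists were read from the same comparison. Of these, 74 had enough counts, and 24 were called higher and 0 lower, against 10.9% of all genes in either direction. Their median log2 fold change was 0.68.

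**Figure D5:**
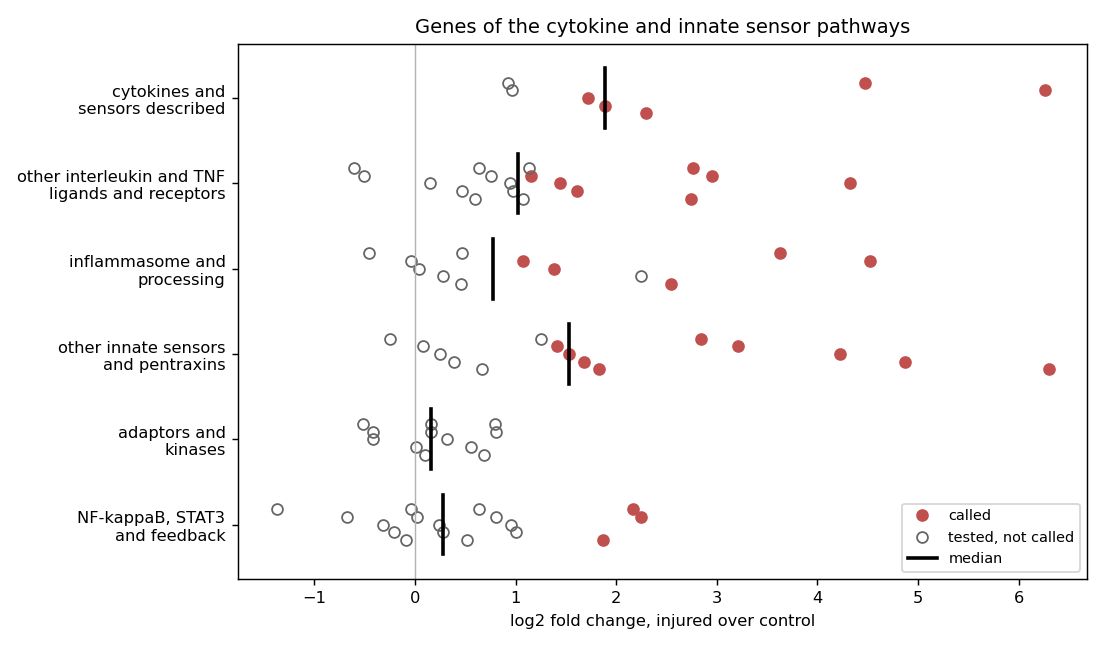
Log2 fold change (injured over control) of each tested gene in the list described here and in 5 pathway lists, with called genes in filled red, genes not called as open circles and the list median as a black bar. The medians run from 1.89 for the 7 cytokines and sensors to 0.16 for the adaptors and kinases, where none was called.

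Of 22 other interleukin and TNF family ligands and receptors, 18 were tested and 7, namely 6 receptor chains and 1 ligand, were called higher, with a median log2 fold change of 1.02. The IL-18 receptor chains Il18r1 and Il18rap had log2 fold changes of 2.77 and 4.32, the IL-33 receptor Il1rl1 2.74, the IL-10 receptor chain Il10ra 2.95, the TNF receptor Tnfrsf1b 1.61, the oncostatin M receptor Osmr 1.16 and the gp130 ligand Lif 1.44. Their edgeR FDR lay between 0.000528 for Il10ra and 0.0423 for Lif. Il18r1 and Il18rap stayed rare, at 1.42 ± 0.433 and 1.99 ± 0.787 CPM (SD, n = 4) after injury. In any control artery they had at most 5 and 2 counts. Il11ra1, the receptor of IL-11, was the most abundant gene of the list after Il6st without a call (log2 fold change -0.60, edgeR FDR 0.243).

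Inflammasomes are complexes that activate caspase-1, which cuts IL-1β and IL-18 into their active forms. All 12 genes of the inflammasome and processing list were tested, of which 5 were called higher and 7 were not called, with a median log2 fold change of 0.77. The sensors Aim2, Nlrc4 and Nlrp3 had log2 fold changes of 4.53, 3.63 and 2.54, the adaptor Pycard 1.39 and the protease Casp1 1.07. Aim2 and Nlrc4 had at most 5 and 7 counts in any control artery, so they could be tested only through the injured arteries. Nlrp3 rose from 2.22 ± 0.775 to 13 ± 2.82 CPM (SD, n = 4), and Casp1 from 5.74 ± 1.61 to 12.1 ± 1.91 CPM (SD, n = 4). The abundant Txnip had 0.04 and Nek7 had -0.46, and Nek7 passed the FDR alone (edgeR FDR 0.0264).

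Of 20 other innate sensors and pentraxins, 15 were tested and 9 were called higher, with a median log2 fold change of 1.54. The C-type lectin receptors Clec7a and Clec4e were among them. Clec7a rose from 1.07 ± 0.426 to 31.5 ± 13.1 CPM (SD, n = 4). Clec4e had 3 counts in all control arteries together and 279 in the injured ones, of which 156 were in artery 2, a ratio of 84.3 (95% exact interval 28.6 to 411, for counting error only). Tlr9, Cd180, Tlr1, Nptx1, Lbp, Cd14 and Tlr5 had log2 fold changes of 4.22, 3.21, 2.85, 1.83, 1.68, 1.54 and 1.41. Tlr9 and Nptx1 had at most 6 and 8 counts in any control artery. Cd14 and Lbp hand lipopolysaccharide to Tlr4, and Tlr1 pairs with Tlr2. Nod1 and Tlr3, the most abundant sensors not called, had 0.39 and 0.08. The genes Tlr7, Tlr8 and Tlr13 of this list and Irak1 of the next were listed at 0 in all 8 libraries. This says nothing about their expression, because 97.8% of 580 protein-coding genes assigned to the X chromosome in the GRCr8 annotation were listed at 0 throughout, against 8.85% on the autosomes. None of the 10 genes described here is on the X chromosome.

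Downstream, 12 of 13 adaptors and kinases of the Toll-like and IL-1 receptors were tested with edgeR and 0 were called by edgeR or DESeq2. The median log2 fold change was 0.16, and 5 had an unadjusted p under 0.05. Without the fold limit 4 passed the FDR, against 17.2% of all genes in either direction. They were Myd88, Irak3 and Irak4, at log2 fold changes of 0.69, 0.81 and 0.55, and Tollip, an inhibitor of the pathway, at -0.52. Tab2 had 0.02. All 17 genes of the NF-κB and STAT3 list were tested and 3 were called higher, with a median of 0.28. They were Nfkbiz, an inducible cofactor of NF-κB, at 2.25, Socs3, a feedback inhibitor of gp130 signaling, at 2.17, and Bcl3, another NF-κB cofactor, at 1.87. Their edgeR FDR was 0.00395, 0.00129 and 0.00117. Socs3 rose from 12.8 ± 3.31 to 57.6 ± 15.7 CPM (SD, n = 4). Stat3 and Dusp1, the most abundant genes not called, had 0.24 and -1.37. These are mRNA levels and do not measure the activity of the pathway.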

How the data were processed

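mRNA of 4 control and 4 injured rat carotid arteries was sequenced. The authors deposited 1 table of raw read counts per gene for the 8 libraries, per the file headers. The processing notes name HISAT2 2.0.4 for alignment, and the counting tool, strand setting and genome build are not given in the sources used here. Groups follow the labels. Genes kept by filterByExpr, 14359 of 37209, were fitted with edgeR 4.0.16 (R 4.3.3), TMM factors and the quasi-likelihood test over all 8 libraries, without covariates, and p-values were adjusted over all genes tested. A call needed a fold change above 2 together with an FDR under 0.05. The 10 genes, the pathway and marker lists and the tests were chosen with earlier results of these data known. All 10 genes are named, and of each pathway list the called genes and the 2 most abundant genes that were not called. The adaptors and kinases that passed the FDR alone are named as well. Ratios within arteries used two-sided exact permutation tests, and intervals cover counting error only. The alternatives were each artery left out, the FDR alone, the replicate number as a block, a minimum of 10 counts in all samples or no filter, scaling by library totals, upper-quartile or RLE factors, and DESeq2 1.42.0. Leaving out both libraries with the most sympathetic marker RNA, and the ratios to macrophage markers, were added after seeing the data. Tested on simulated data for injured against control arteries (14140 genes), edgeR called 159 of 200 genes (79.5%) changed 4-fold, with 10 false calls. On the same data DESeq2 called 187 of the 200, with 55 false calls. The changed genes were drawn from the more abundant ones and no outlying library was simulated, so these shares do not cover genes with few counts.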

Additional observations from a re-analysis of the deposited data

Results flagged for a closer look

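In 24 groups of 4 arteries (each gene in each condition, and the ratios), Dixon's test at 95% was used to ask whether the highest or lowest artery stood apart. It did in 2 groups, where chance gives about 1.2 (1 in 20), and both times the artery was control artery 4. For Il18 the gap between control artery 4 at 16.1 CPM and the nearest control at 1.37 CPM was 0.974 of the range. For Il10 the value was 1, because control artery 4 had 1 count and the other controls had 0, so this gap is a single read.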

How the results depend on the processing

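The 7 cytokines and sensors tested and both ratios kept their direction under every alternative that gave them a value. Signs of single genes in the pathway lists did change. Above 0 were 7 to 9 adaptors, 10 to 13 NF-κB and STAT3 genes and, where all 12 were tested, 9 to 11 inflammasome genes. The median of the sympathetic markers tested went from -2.44 to 4.04 with the replicate block and to 7.02 without control artery 4. The count of all genes called was 1562, against 1007 with at least 10 counts in every sample, 2468 by the FDR alone, 1142 to 2398 with 1 artery left out (2398 without control artery 4) and 2473 without both control artery 4 and injured artery 3. Of the 10 cytokines and sensors, 3 were called with at least 10 counts in every sample, where Il1b and Il1rn could not be tested, and 4 to 6 with 1 artery left out, where 7.74% to 16.2% of all genes were called. At that count minimum, 9 inflammasome genes and 8 other sensors could be tested, of which 3 and 4 were called. Of all genes, 8.16% were called there in either direction. By the FDR alone, 4 adaptors and 5 NF-κB and STAT3 genes were called, where 17.2% of all genes were called. With 1 artery left out, calls ranged from 6 to 8 for other ligands and receptors, 4 to 6 for inflammasome genes, 6 to 9 for other sensors, 0 to 0 for adaptors and 3 to 4 for NF-κB and STAT3 genes. Whether the replicate numbers pair the arteries remained unknown. For numbers 1 to 4, the control and injured deviations correlated at 0.301, 0.450, -0.520 and -0.416. These values cannot decide the question, because 2 outlying libraries with different numbers can set their signs. They are control artery 4 and injured artery 3, with 5858 and 954 CPM of sympathetic neuron markers. With the number as a block, 1187 genes were called, among them 4 of the 10 (not Ptx3, at 1.94 with an edgeR FDR of 0.0642), 3 other ligands and receptors and 5 NF-κB and STAT3 genes (4 higher and 1 lower). The Tlr2 to Tlr4 difference stayed 1.33 in that pairing, at p = 0.125 in the exact sign permutation test, the smallest 4 pairs allow. Il18 was called in 2 alternatives, both without control artery 4, and the cause was not tested. Depth limits Il6, Il10 and Tnf, with at most 28 counts in any artery.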
